A study of Mus musculus with 10 samples.

Results

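The genes described here are 38 mouse genes of cholesterol synthesis, sterol sensing and bile acid metabolism. They were named one by one from what their products do, but with earlier results of these data known. All 38 were found among the 55401 genes of the count tables, and 35 of them were abundant enough to be tested, among 12234 genes tested in all. They were grouped by role into 17 genes of cholesterol synthesis, 9 of sterol sensing and cholesterol handling, 8 of bile acid synthesis and 4 of bile acid transport.

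The livers came from 5 wild-type (WT) mice and 5 mice with a liver-specific knockout of Thrb (Thrb-KO), with 1 mRNA library per mouse, and the comparison asks which liver genes depend on Thrb, the gene of thyroid hormone receptor beta. The titles give the strain as C57Bl6/J and the strain field as C56Bl6/J. Thrb-KO mice descend from a cross of Thrb-loxP/loxP mice with Afp-Cre mice, so that the promoter of alpha-fetoprotein, a protein of the fetal liver, drives the recombinase. The WT mice were littermates, and whether they carried the floxed allele or Cre is not given in the sources used here. Both groups were untreated and had free access to standard chow, and the sex, age and hour of collection of these mice are likewise not given.

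Cholesterol is built in the liver from acetyl-CoA through mevalonate, squalene and a series of sterols. The transcription factor SREBP-2, encoded by Srebf2, is held in the endoplasmic reticulum by the INSIG proteins and SCAP while sterols are plentiful, and it activates the genes of the whole pathway when they run low. The liver disposes of cholesterol mainly by converting it to bile acids, through a classic route opened by Cyp7a1 and an alternative route opened by Cyp27a1, and thyroid hormone is known for raising Cyp7a1 in rodents.

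Total counts per library ranged from 26477195 to 28590704, at which 3 counts amount to 0.105 to 0.113 CPM, the unit that scales counts to the library total. Levels below are normalized CPM, for which library sizes were first multiplied by TMM, a factor that corrects for differences in RNA composition. The targeted gene, Thrb, was present at 32.5 to 34.2 normalized CPM in WT mice and at 24.9 to 28.8 in Thrb-KO mice, so every Thrb-KO mouse was below every WT mouse but most of the transcript count remained (log2 fold change -0.32 ± 0.067 (SE), adjusted p = 0.036 with edgeR). From which exons the remaining reads came cannot be seen in these tables. The summed level of 5 hepatocyte markers was 77875 to 117172 normalized CPM in WT mice and 93272 to 106751 in Thrb-KO mice. Most of it came from Alb, at 60311 to 96603 and 71262 to 87569. The log2 fold change was above 0 in 3 of the 5 and below 0 in 2, and 0 passed an adjusted p of 0.15. In Ttr every Thrb-KO mouse was above every WT mouse (log2 fold change 0.30, adjusted p = 0.18 with edgeR). Thrb-KO livers differed from WT livers in acute-phase genes, which encode plasma proteins of inflammation: the log2 fold change was below 0 in all 16 and 12 of them passed the test described next, and their summed level was 37664 to 70753 normalized CPM in WT mice against 24988 to 41835 in Thrb-KO mice.

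No member passed the test of a genotype difference. Of the 35 members tested, 0 passed an adjusted p of 0.15 in edgeR's quasi-likelihood test, the threshold of the study, while 4.08% of all genes tested passed it. At 0.05 the members again numbered 0, against 1.35% of all genes. With DESeq2, 1 member passed, Slc10a2, the sodium-dependent bile acid transporter known from ileum and bile duct. At an unadjusted p below 0.05, 3 members (8.57%) passed, against 13.6% of all genes, and these were Slc10a2, Npc1 and Stard4. In no member tested did the groups stay apart, as they did in 3.64% of all genes (1.38% with every Thrb-KO mouse above every WT mouse and 2.26% with every one below). The log2 fold changes of the members, Thrb-KO minus WT, were above 0 in 11 and below 0 in 24, with a median of -0.086 beside a median of 0.00054 over all genes.

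The estimates also carried wide intervals for some members, which limits what a missing call can say. In 33 of the 35 members the estimate lay within a 1.5-fold change in either direction. The 95% interval lay within a 2-fold change in 26 members and within a 1.5-fold change in 13. Hmgcs1, Mvd and Fdps are among those whose interval reaches past a 2-fold decrease, so with 5 mice per group a decrease of that size could not be told from none.

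**Figure D1:**
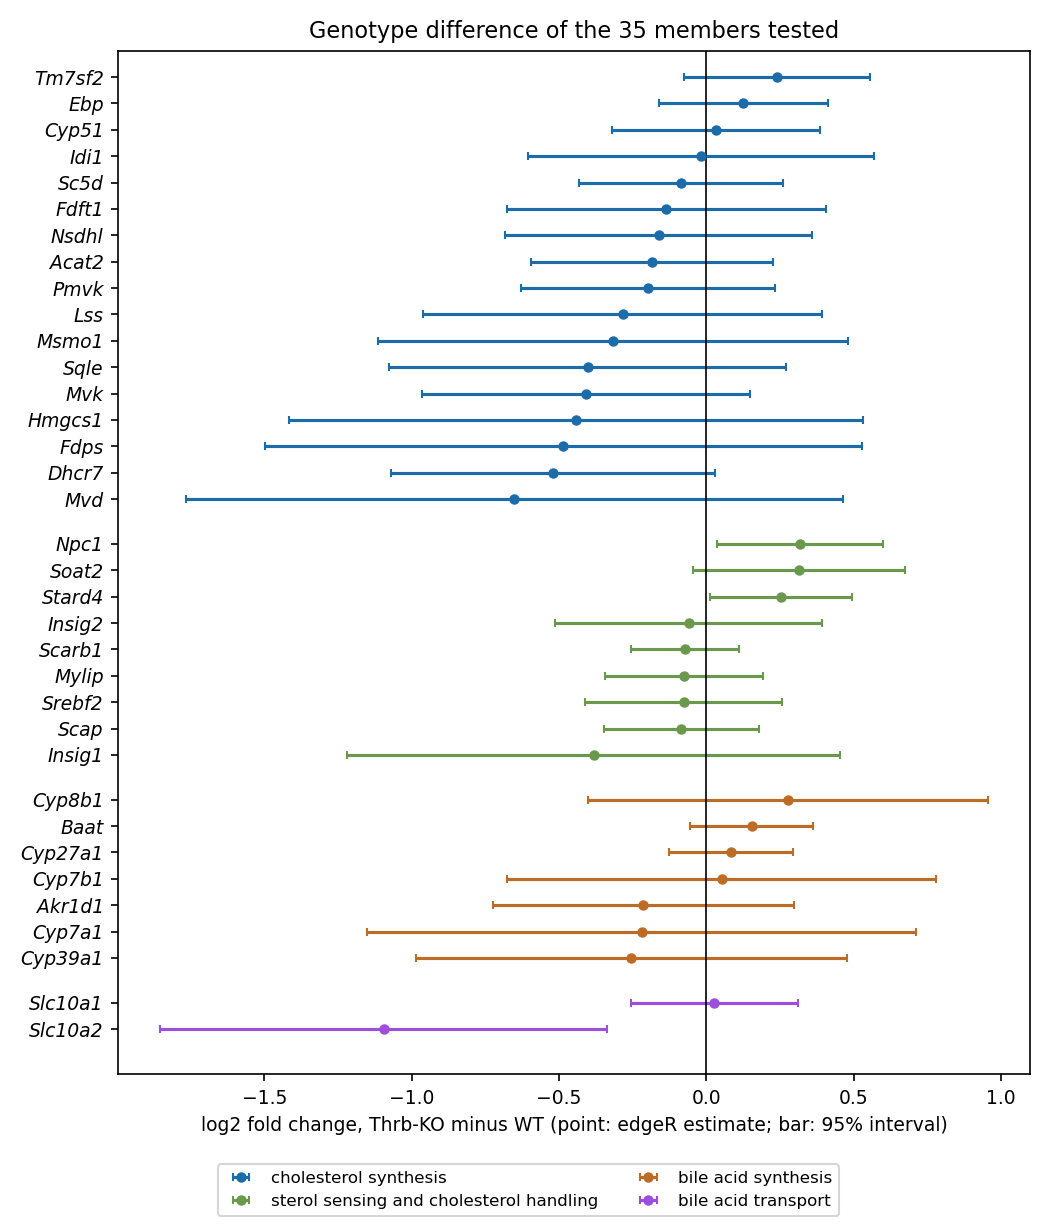
Log2 fold change (Thrb-KO minus WT, horizontal axis) of the 35 members tested, ordered within their 4 groups, with the edgeR estimate as a point and its 95% interval as a bar. The estimates run from -1.10 for Slc10a2 to 0.32 for Npc1, and the intervals of 32 members hold 0.

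The enzymes of cholesterol synthesis varied widely from mouse to mouse in both genotypes. Of 17 genes, all tested, 0 passed the threshold and 14 had a log2 fold change below 0. The median was -0.20 and the range ran from -0.65 (Mvd) to 0.24 (Tm7sf2). The coefficient of variation among WT mice, the SD as a percentage of the mean, had a median of 30.1% over these genes and 11.8% over all genes tested. Among Thrb-KO mice it was 30.0% and 13.7%.

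The promoters of this group are shown first, because these genes are known as targets of one factor. Windows of 250 bases before and 50 bases after a gene start were held by RefSeq (GRCm38.p6) for 27 of the 38 members, 14 of them enzymes of cholesterol synthesis. The letters CCAAT, the box bound by NF-Y, which is known to act beside SREBP-2, were found on either strand in 13 of these 14 genes (92.9%) and in 4 of 5 genes of sterol sensing (80.0%), against 41.1% of 27025 genes. They were found in 1 of 4 genes of bile acid synthesis and in 1 of 4 of bile acid transport. A gene counted if any of its windows held the letters, and the 27025 genes include many too scarce in these livers to be tested. For 21 of the 27 members the bases after the start were found in a transcript of the gene. The core of a sterol response element, TCACNCCAC, was found in 1 member, Hmgcs1, and in 1.44% of all genes. Direct repeats of AGGTCA, the half-site of nuclear receptors, were searched as DR4, the spacing read by thyroid hormone and liver X receptors, and as DR1. Both were found in 0 of the 27 members, DR4 in 0.0148% and DR1 in 0.0481% of all genes. A match describes the letters of these windows and is no evidence of binding, and a missing match says only that these exact letters are not there.

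The promoters printed here run from 250 bases before the start up to it, 5′ to 3′ on the strand of the gene, with the sterol response element core and CCAAT (or ATTGG, its reverse complement) in capitals. Hmgcs1 at chr13:119690101-119690350, plus strand, is the member with the sterol core, which begins 137 bases before the start. Mvd at chr8:122443423-122443672, minus strand, is the enzyme with the lowest log2 fold change, and Cyp8b1 at chr9:121916306-121916555, minus strand, is a bile acid gene with neither motif.
Hmgcs1: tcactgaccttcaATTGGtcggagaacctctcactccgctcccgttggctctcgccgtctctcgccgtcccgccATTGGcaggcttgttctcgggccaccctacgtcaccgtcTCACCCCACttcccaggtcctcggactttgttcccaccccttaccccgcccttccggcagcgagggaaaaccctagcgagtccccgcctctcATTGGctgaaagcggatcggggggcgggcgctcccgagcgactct
Mvd: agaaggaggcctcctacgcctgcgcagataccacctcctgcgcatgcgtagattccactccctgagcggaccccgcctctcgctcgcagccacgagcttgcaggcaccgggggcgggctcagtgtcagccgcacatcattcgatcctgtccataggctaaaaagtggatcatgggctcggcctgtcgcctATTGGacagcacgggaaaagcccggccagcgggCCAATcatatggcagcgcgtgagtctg
Cyp8b1: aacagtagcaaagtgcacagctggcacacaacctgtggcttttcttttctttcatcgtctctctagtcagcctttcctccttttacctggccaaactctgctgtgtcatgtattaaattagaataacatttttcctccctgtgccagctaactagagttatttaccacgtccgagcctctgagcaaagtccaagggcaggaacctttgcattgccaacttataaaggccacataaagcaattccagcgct

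Hmgcs1 makes HMG-CoA, the precursor of mevalonate. Its normalized CPM were 121, 202, 112, 197 and 402 in WT mice 1 to 5 and 296, 94.4, 103, 96.8 and 170 in Thrb-KO mice 1 to 5. The highest value of each group belonged to a single mouse, WT mouse 5 and Thrb-KO mouse 1, and the groups overlapped. From a mean of 207 ± 117 (SD, n = 5) in WT to 152 ± 86.4 (SD, n = 5) in Thrb-KO mice, this was a log2 fold change of -0.44 ± 0.44 (SE) with an adjusted p of 0.73 in edgeR.

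Sqle, squalene epoxidase, catalyses a slow step on the way to the first sterol. It was at 104, 144, 103, 115 and 236 normalized CPM in WT mice 1 to 5 and at 160, 67.2, 93.2, 75.7 and 135 in Thrb-KO mice 1 to 5. The same 2 mice were the highest of their groups, while Thrb-KO mice 2, 3 and 4 lay below all WT mice. With edgeR the estimate was a log2 fold change of -0.40 ± 0.30 (SE), adjusted p = 0.62.

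Mvd, which makes isopentenyl diphosphate, the building block of all isoprenoids, had the lowest estimate of the group. It was at 16.5, 27.3, 16.0, 23.5 and 84.7 normalized CPM in WT mice 1 to 5 and at 34.6, 17.2, 14.1, 15.2 and 25.7 in Thrb-KO mice 1 to 5. WT mouse 5 stood far above every other mouse, and the other WT mice lay within the range of the Thrb-KO mice. Its log2 fold change was -0.65 ± 0.50 (SE), adjusted p = 0.63 with edgeR, and without WT mouse 5 it was 0.038.

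Dhcr7, which performs the last reduction to cholesterol, had the lowest p of the group. Its levels were 131, 162, 110, 156 and 236 normalized CPM in WT mice 1 to 5 and 138, 108, 78.9, 73.9 and 155 in Thrb-KO mice 1 to 5. The values of Thrb-KO mice 2, 3 and 4 lay below all WT values. With edgeR the log2 fold change was -0.52 ± 0.25 (SE), adjusted p = 0.39. Dhcr7 and Mvd are given by mouse for these extremes, which were chosen after the values were seen, as were the members given by mouse further on other than Srebf2, Cyp7a1, Cyp8b1, Cyp27a1 and Cyp7b1.

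Most of the remaining enzymes were ordered in the same way across mice. WT mouse 5 was the highest WT mouse in 17 of the 17 genes, against 21.7% of all genes tested, and the highest of all 10 mice in 13 of them, against 12.8% of all genes. WT mouse 3 was the lowest WT mouse in 15 of the 17. Among Thrb-KO mice, mouse 1 was highest in 9 genes, mouse 5 in 6 and mouse 2 in 2, and mouse 4 was lowest in 10. Those 2 exceptions were Tm7sf2, a sterol reductase, and Ebp, in which Thrb-KO mouse 2 was the highest of all 10 mice at 198 and 392 normalized CPM. Relative to the WT mean of each gene, the median over the 17 genes was 0.62 on the log2 scale in WT mouse 5, 0.26 in Thrb-KO mouse 1 and 0.16 in Thrb-KO mouse 5. It was -0.28, 0.055, -0.42 and -0.018 in WT mice 1 to 4, and -0.36, -0.51 and -0.65 in Thrb-KO mice 2 to 4.

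The direction of the group changed with that single WT mouse and with a covariate. Without WT mouse 5, 10 of the 17 log2 fold changes were above 0 and 7 below, with a median of 0.029. With any other mouse left out, at least 13 of the 17 stayed below 0. With the first principal component of the acute-phase genes as a covariate, 17 of the 17 were above 0, with a median of 0.51, and 0 passed the threshold. That component was correlated with the genotype over the 10 mice (r = -0.84), so their parts in these estimates cannot be told apart. WT mouse 5 also stood apart in some clock genes. In it Nr1d1 was at 36.9 normalized CPM against 92.8 to 106 in the other WT mice, and Per1 at 67.8 against 23.3 to 38.1. Per2 was at 58.0 against 25.6 to 35.9, Per3 at 75.03 against 37.1 to 42.9 and Ciart at 33.8 against 11.5 to 23.3. Other clock genes did not stand apart, such as Arntl at 1.20 against 0.78 to 2.06 and Cry2 at 54.0 against 36.8 to 54.1. Thrb-KO mouse 1, also high in many of the 17 enzymes, lay the other way in clock genes. Its Nr1d1, at 166, was the highest of all 10 mice and its Per2, at 16.0, the lowest. A link between clock genes and these enzymes was not tested. With the first component of the clock genes as a covariate, 13 of the 17 stayed below 0, with a median of -0.13.

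**Figure D2:**
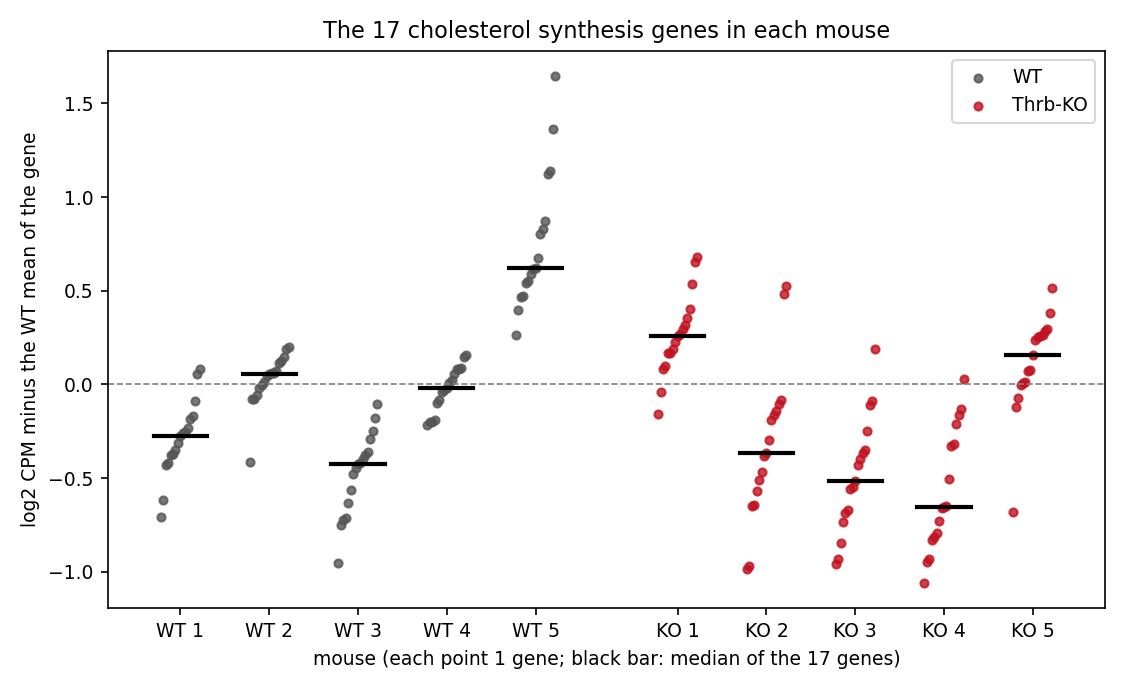
Deviation of each of the 17 cholesterol synthesis genes from its WT mean (log2 CPM, vertical axis) in each of the 10 mice (horizontal axis), 1 point per gene, with the median of the 17 as a black bar. All 17 genes are above the WT mean in WT mouse 5 and 15 of them in Thrb-KO mouse 1, while 0 are above it in WT mouse 3 and 1 in each of Thrb-KO mice 3 and 4.

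Levels can be compared between genes only per length, here as normalized CPM per kilobase of exon. In WT mice the most abundant enzymes were Ebp, a sterol isomerase, at 122 ± 16.0 (SD, n = 5), and Sc5d, a sterol desaturase, at 110 ± 28.1, which do not differ beyond their spread. Hmgcs1 followed at 45.0 ± 25.4, and Sqle was at 25.3 ± 10.1. The lowest was Fdps, farnesyl diphosphate synthase, at 2.97 ± 2.08. For Fdps 26.7% of the exon length overlaps another gene, and reads there were not counted. Exon overlap also touches Fdft1 (18.3%), Slc51a (17.7%), Scap (13.2%), Slc51b (12.8%), Hmgcs1 (12.1%) and Tm7sf2 (12.1%), so the levels of these genes are uncertain.

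Of the 9 sensors and handlers of sterol 0 passed the threshold, with log2 fold changes from -0.38 (Insig1) to 0.32 (Npc1). Srebf2, the gene of SREBP-2 itself, was at 65.3, 81.0, 74.0, 83.0 and 114 normalized CPM in WT mice 1 to 5 and at 101, 64.5, 76.5, 69.1 and 83.7 in Thrb-KO mice 1 to 5. Again WT mouse 5 and Thrb-KO mouse 1 were the highest of their groups, and the groups overlapped. The estimate was a log2 fold change of -0.08 ± 0.15 (SE), adjusted p = 0.89 with edgeR, with a 95% interval from -0.41 to 0.26.

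Insig1, which retains SREBP-2 and is itself one of its targets, was at 292, 329, 228, 262 and 939 normalized CPM in WT mice 1 to 5 and at 343, 282, 332, 235 and 381 in Thrb-KO mice 1 to 5. All mice but WT mouse 5 lay between 228 and 381. The log2 fold change was -0.38 ± 0.38 (SE), the lowest of this group, with an adjusted p of 0.73 in edgeR, and it was 0.18 without WT mouse 5. Insig2, its close relative, was lowest in that mouse, at 60.5 normalized CPM against 71.0 to 128 in the other WT mice, with means of 96.9 ± 30.5 (SD, n = 5) in WT and 92.9 ± 15.7 in Thrb-KO mice.

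Npc1, which carries cholesterol out of lysosomes, had the highest log2 fold change of the members. It was at 112, 99.2, 110, 136 and 103 normalized CPM in WT mice 1 to 5 and at 150, 130, 128, 109 and 180 in Thrb-KO mice 1 to 5. Only Thrb-KO mice 1 and 5 exceeded every WT mouse. In edgeR its log2 fold change was 0.32 ± 0.13 (SE), unadjusted p = 0.030 and adjusted p = 0.31.

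Stard4, a carrier of cholesterol through the cytosol, was at 159, 160, 131, 179 and 175 normalized CPM in WT mice 1 to 5 and at 154, 178, 217, 210 and 199 in Thrb-KO mice 1 to 5. Thrb-KO mice 3, 4 and 5 lay above all WT mice and Thrb-KO mice 1 and 2 among them. This gave a log2 fold change of 0.25 ± 0.11 (SE), adjusted p = 0.34 with edgeR. Neither Npc1 nor Stard4 passed the adjusted threshold in any of 16 alternative analyses.

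For the other 4 handlers the estimates follow, and that of Soat2 was close to that of Npc1. Soat2, which esterifies cholesterol, had a log2 fold change of 0.31 (adjusted p = 0.44, edgeR), with a 95% interval from -0.045 to 0.67. In it 3 Thrb-KO mice lay above every WT mouse. Scap, Scarb1, the receptor of high-density lipoprotein, and Mylip, which targets the low-density lipoprotein receptor for degradation, had log2 fold changes of -0.09, -0.07 and -0.08. For Scarb1 the 95% interval ran from -0.26 to 0.11, and for Mylip from -0.34 to 0.19.

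Bile acid synthesis was not shifted in one direction. Of 8 genes, 7 were tested and 0 passed the threshold. The log2 fold change was above 0 in 4 and below 0 in 3, with a median of 0.052. Spread among mice was again wide, with a median coefficient of variation of 20.5% in WT and 34.3% in Thrb-KO mice.

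Cyp7a1, the rate-limiting enzyme of the classic route, was at 146, 132, 95.5, 87.1 and 218 normalized CPM in WT mice 1 to 5 and at 46.2, 104, 106, 243 and 84.1 in Thrb-KO mice 1 to 5. The lowest and the highest of all 10 mice were both Thrb-KO mice, 1 and 4. The mean was 136 ± 52.0 (SD, n = 5) in WT and 117 ± 74.6 (SD, n = 5) in Thrb-KO mice. This was a log2 fold change of -0.22 ± 0.42 (SE), adjusted p = 0.88 with edgeR, and its 95% interval ran from -1.15 to 0.71.

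Cyp8b1, the sterol 12-alpha-hydroxylase that directs synthesis towards cholic acid, was at 388, 302, 362, 487 and 368 normalized CPM in WT mice 1 to 5 and at 654, 590, 267, 205 and 596 in Thrb-KO mice 1 to 5. Thrb-KO mice lay on both sides of the WT range, with mice 1, 2 and 5 above it and mice 3 and 4 below it. Its log2 fold change was 0.28 ± 0.31 (SE), adjusted p = 0.76 with edgeR.

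The alternative route held one steady and one variable enzyme, with coefficients of variation in WT mice of 10.4% and 43.3%. Cyp27a1, the sterol 27-hydroxylase that opens it, was at 612, 498, 593, 639 and 658 normalized CPM in WT mice 1 to 5 and at 675, 685, 586, 617 and 613 in Thrb-KO mice 1 to 5. Thrb-KO mice 1 and 2 lay above every WT mouse, WT mouse 2 lay below every Thrb-KO mouse, and the others overlapped. The log2 fold change was 0.08 ± 0.097 (SE), adjusted p = 0.77 with edgeR, with a 95% interval from -0.13 to 0.29. Cyp7b1, the oxysterol 7-alpha-hydroxylase that follows it, was at 402, 233, 165, 336 and 144 normalized CPM in WT mice 1 to 5 and at 299, 211, 148, 280 and 389 in Thrb-KO mice 1 to 5. Both groups spanned nearly the same range, with a log2 fold change of 0.05 ± 0.33 (SE), adjusted p = 0.97 with edgeR.

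Cyp39a1, an oxysterol 7-alpha-hydroxylase that acts on 24-hydroxycholesterol, was at 31.1, 18.5, 23.5, 22.2 and 28.7 normalized CPM in WT mice 1 to 5 and at 12.7, 13.6, 31.8, 33.9 and 11.8 in Thrb-KO mice 1 to 5. Thrb-KO mice 1, 2 and 5 lay below the WT range and mice 3 and 4 above it, the reverse of Cyp8b1. The estimate was -0.25 ± 0.33 (SE) on the log2 scale, adjusted p = 0.80 with edgeR. Akr1d1, the reductase that sets the bent shape of the steroid rings, and Baat, which joins bile acids to taurine or glycine, had log2 fold changes of -0.21 and 0.15 (adjusted p = 0.75 and 0.53 with edgeR).

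Hsd3b7, an early dehydrogenase of both routes, had 0 counts in every mouse, which cannot be read as absence of the transcript. In the GENCODE M21 annotation of GRCm38, 99.2% of its exon length overlaps exons of Gm49388 and 9430064I24Rik, and reads that fall on more than 1 gene were not counted. Those neighbours had 0 counts and 1 to 6 counts. The authors counted reads with an Ensembl release of the annotation, in which these overlaps were not examined.

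Of the bile acid transporters, Slc10a1, which takes bile acids up from blood into hepatocytes, and Slc10a2 were tested. Slc10a1 was at 637 to 961 normalized CPM in WT mice (median 793) and at 657 to 957 in Thrb-KO mice (median 818), with a log2 fold change of 0.03 ± 0.13 (SE) and an adjusted p of 0.96 in edgeR. Per kilobase of exon it was the most abundant member, at 361 ± 55.6 (SD, n = 5) normalized CPM in WT mice, ahead of Cyp27a1 at 276 ± 28.7.

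Slc10a2 was the member with the lowest p. It was at 27.0, 31.1, 16.5, 16.3 and 38.6 normalized CPM in WT mice 1 to 5 and at 9.69, 7.16, 17.1, 18.7 and 7.89 in Thrb-KO mice 1 to 5. Thrb-KO mice 1, 2 and 5 lay below every WT mouse, and mice 3 and 4 lay just above the lowest WT values. The mean was 25.9 ± 9.60 (SD, n = 5) in WT and 12.1 ± 5.40 (SD, n = 5) in Thrb-KO mice, a log2 fold change of -1.10 ± 0.34 (SE) with a 95% interval from -1.85 to -0.34. The adjusted p was 0.18 in edgeR and 0.014 in DESeq2, and leaving out WT mouse 4 brought the edgeR value to 0.149. Over 16 alternatives the adjusted p ranged from 0.014 to 1.0, and the log2 fold change stayed between -1.31 and -0.90.

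Because Slc10a2 is also expressed by bile duct cells, cholangiocyte markers are given beside it. Their summed level was 24.6 to 46.4 normalized CPM in WT mice and 24.0 to 28.6 in Thrb-KO mice, and of 5 markers 3 were tested and 0 passed the threshold. The 3 tested had log2 fold changes below 0, in the direction of Slc10a2: -0.50 in Sox9 (unadjusted p = 0.044, adjusted p = 0.35 with edgeR), -0.42 in Spp1 (unadjusted p = 0.033, adjusted p = 0.32) and -0.0028 in Epcam. Sox9 was at 3.43 to 6.80 normalized CPM in WT mice and at 2.23 to 4.52 in Thrb-KO mice, with 3 Thrb-KO mice below all WT mice, and Spp1 was at 18.8 to 36.6 and 17.9 to 22.4. Krt19 and Krt7, defining keratins of these cells, were at 0.337 to 1.02 and 0.515 to 0.973 normalized CPM over all 10 mice, below the filter. The mean of Krt19 was 0.72 in WT and 0.70 in Thrb-KO mice, and that of Krt7 0.77 and 0.78. WT mouse 5 had the lowest marker sum of the WT mice, 24.6, but the highest Slc10a2, 38.6. Fewer cells of a type and less RNA per cell cannot be told apart in whole liver, and the part of these cells in the result was not tested.

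Slc51a and Slc51b, which together form an exporter of bile acids, were below the filter of 1 CPM in at least 5 libraries, and part of their exon length overlaps other genes, as given above. Slc51a had 4, 5, 4, 4 and 7 counts in WT mice 1 to 5 and 0, 2, 2, 1 and 3 in Thrb-KO mice 1 to 5. The groups did not overlap, at counts too low for a fold change, and without the filter the adjusted p was 0.32 in edgeR. Slc51b had 3, 5, 6, 5 and 10 counts in WT mice and 5, 3, 3, 5 and 1 in Thrb-KO mice, with overlap and an adjusted p of 0.60 without the filter.

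**Figure D3:**
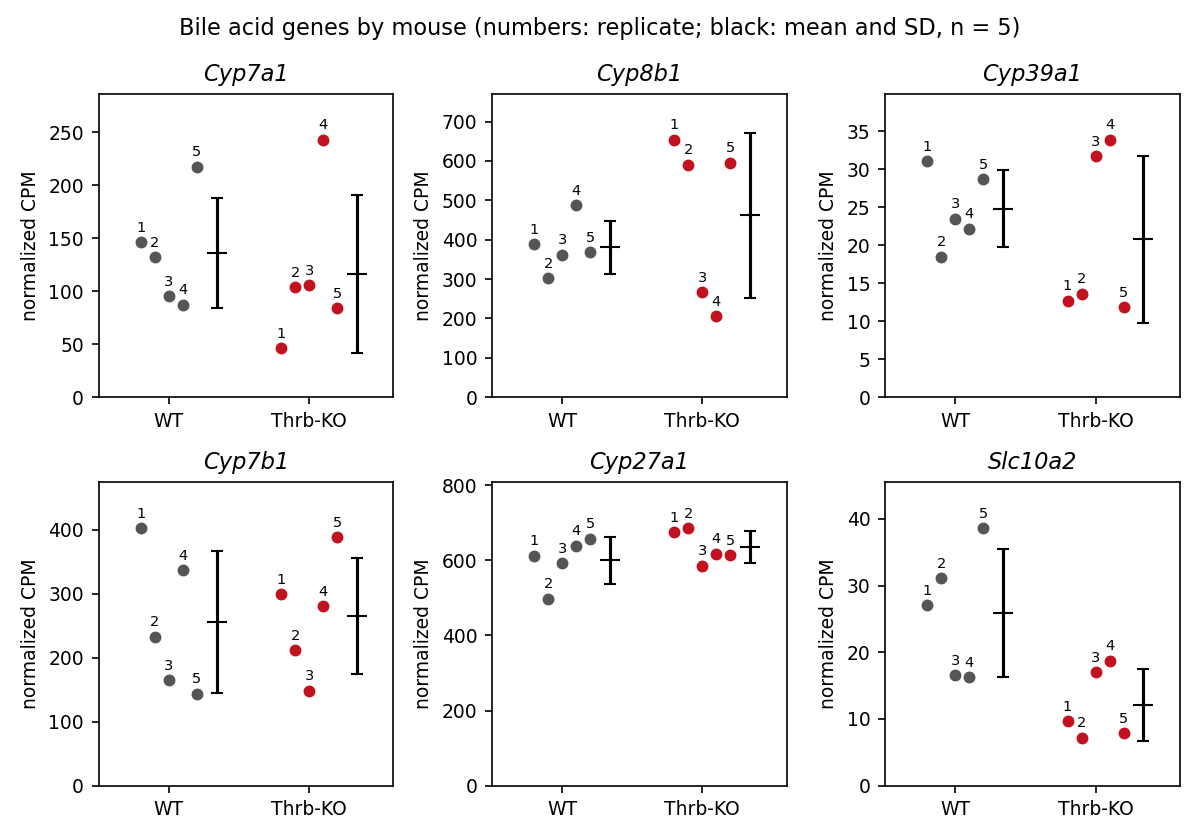
Normalized CPM (vertical axis) of bile acid members in each WT and Thrb-KO mouse, with replicate numbers beside the points and the mean and SD (n = 5) in black. Thrb-KO mice 3 and 4 are the low pair in Cyp8b1 and the high pair in Cyp39a1 and Slc10a2.

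A few genes that work beside the members passed the test. Their lists were chosen with earlier results of these data known, so counts of calls within them are description only. Of 24 other sterol genes, all tested, 2 passed the threshold, both lower in Thrb-KO mice. Of all genes tested, 2.57% passed and were lower. The median log2 fold change of the 24 was -0.025. These genes were Abcg5 and Abcg8, whose products together form the transporter that secretes cholesterol into bile. Of 26 other bile acid genes, 25 were tested and 4 passed, all higher in Thrb-KO mice. Of all genes tested, 1.51% passed and were higher. The median log2 fold change of the 25 was 0.14. The 4 calls fell to 1 with the replicate number as a block, and to 1 without WT mouse 2 or without WT mouse 5. The genes called were Abcb11, Abcc3, Akr1c14 and Cyp46a1, and the remaining gene, Ch25h, was not tested.

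Abcg5 was at 128, 147, 105, 111 and 145 normalized CPM in WT mice 1 to 5 and at 72.7, 75.1, 87.2, 58.8 and 68.6 in Thrb-KO mice 1 to 5. Every Thrb-KO mouse was below every WT mouse, with a log2 fold change of -0.81 ± 0.12 (SE) and an adjusted p of 0.0063 in edgeR. Abcg8 was at 174, 194, 119, 165 and 138 normalized CPM in WT mice 1 to 5 and at 106, 102, 118, 72.7 and 98.7 in Thrb-KO mice 1 to 5. The groups were apart by less than 1 CPM, between Thrb-KO mouse 3 and WT mouse 3, and the log2 fold change was -0.67 ± 0.15 (SE), adjusted p = 0.049 with edgeR. The genes lie head to head on chromosome 17 of GRCm38, Abcg5 from 84658234 to 84683011 on the minus strand and Abcg8 from 84676302 to 84700333 on the plus strand. In GENCODE M21 they share 82 bases of exon, and reads that fall on both genes were not counted.

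Abcb11, the bile salt export pump, was at 585, 588, 607, 569 and 539 normalized CPM in WT mice 1 to 5 and at 830, 589, 957, 973 and 698 in Thrb-KO mice 1 to 5. WT mice lay close together, and all Thrb-KO mice but mouse 2 lay above them. It was higher by a log2 fold change of 0.49 ± 0.13 (SE), adjusted p = 0.10 with edgeR. This call was lost in 9 of 16 alternatives, over which the adjusted p ran from 0.012 to 1.0, and 7 of these left out 1 mouse (any WT mouse, or Thrb-KO mouse 3 or 4).

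Abcc3, which exports conjugated bile acids and other organic anions to blood, was at 154, 92.0, 149, 161 and 84.3 normalized CPM in WT mice 1 to 5 and at 293, 256, 161, 196 and 231 in Thrb-KO mice 1 to 5. The lowest Thrb-KO mouse met the highest WT mouse. It rose by a log2 fold change of 0.83 ± 0.21 (SE), adjusted p = 0.090 with edgeR, lost in 7 of 16 alternatives (adjusted p from 0.0044 to 1.0), among them those without WT mouse 2 or 5 or Thrb-KO mouse 2 or 5.

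Akr1c14, a hydroxysteroid dehydrogenase, was at 359, 288, 296, 295 and 251 normalized CPM in WT mice 1 to 5 and at 265, 480, 534, 653 and 679 in Thrb-KO mice 1 to 5. Thrb-KO mouse 1 lay within the WT range and the other Thrb-KO mice above it. It rose by a log2 fold change of 0.81 ± 0.21 (SE), adjusted p = 0.092 with edgeR, lost in 10 of 16 alternatives (adjusted p from 0.0055 to 1.0), among them those without WT mouse 2, 3, 4 or 5 or Thrb-KO mouse 3, 4 or 5. The gene belongs to a family of similar copies, and reads that fit several places were not counted.

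Cyp46a1, the cholesterol 24-hydroxylase known from brain, was scarce, at 1.93, 1.08, 2.0, 1.56 and 1.16 normalized CPM in WT mice 1 to 5 and at 4.86, 3.75, 3.64, 2.71 and 2.02 in Thrb-KO mice 1 to 5. Every Thrb-KO mouse was above every WT mouse, but Thrb-KO mouse 5 and WT mouse 3 differed by less than the value of 1 count. It rose by a log2 fold change of 1.13 ± 0.26 (SE), adjusted p = 0.053 with edgeR, on 31 to 140 counts per library.

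With the first principal component of the acute-phase genes as a covariate, 0 of these 6 genes passed the threshold in edgeR. The log2 fold changes of Abcc3 (0.76) and Cyp46a1 (1.10) stayed about as large, while those of Abcg5 (-0.42), Abcg8 (-0.23), Abcb11 (0.15) and Akr1c14 (0.33) came closer to 0. That component moved with the genotype over the 10 mice, and their parts cannot be told apart here.

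**Figure D4:**
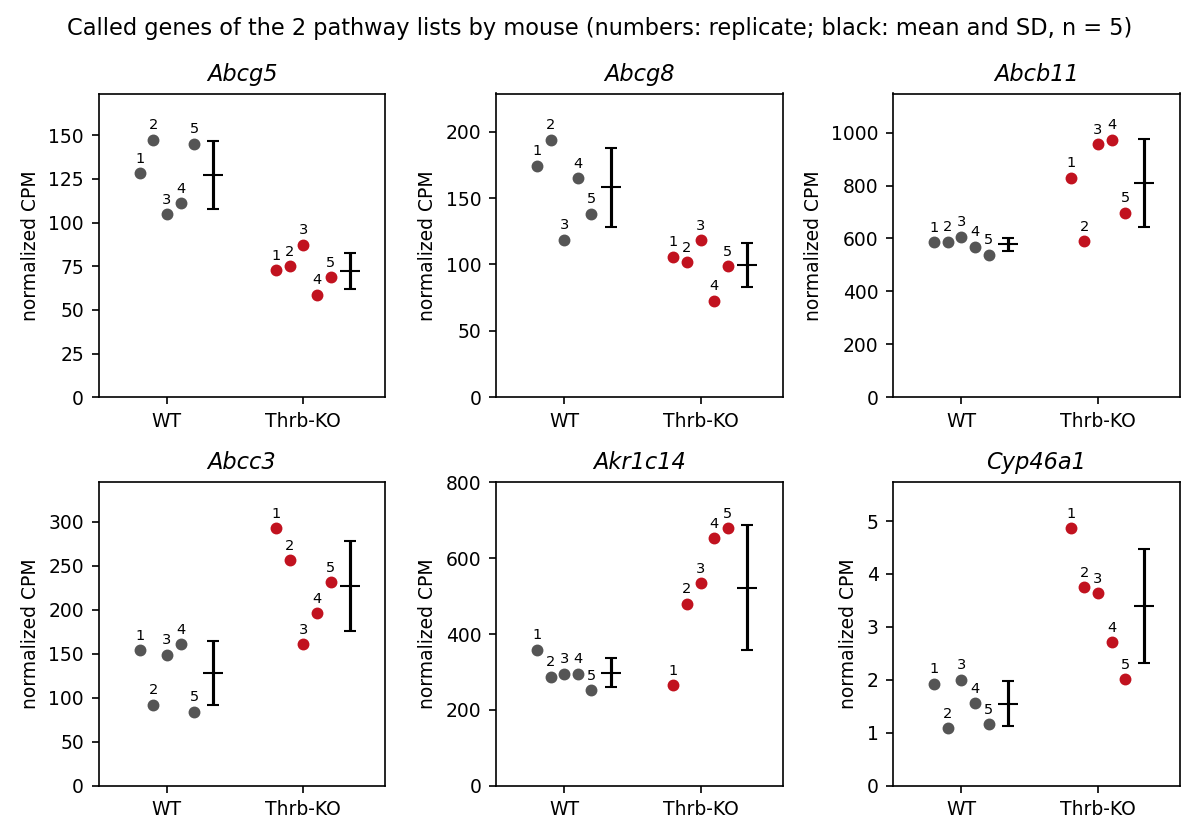
Normalized CPM (vertical axes, each from 0) of the 6 genes of the neighbouring lists that passed the threshold, by mouse, with replicate numbers and the mean and SD (n = 5) in black. Abcg5 and Abcg8 are lower in every Thrb-KO mouse and Cyp46a1 is higher in every one, with thin gaps in Abcg8 and Cyp46a1, while Abcb11, Abcc3 and Akr1c14 overlap.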

How the data were processed

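Liver mRNA of 5 WT and 5 Thrb-KO mice was sequenced from stranded libraries. The authors mapped reads to mm10 (GRCm38) with HISAT2 (2.2.1 per the submitters' processing notes) and counted them per Ensembl gene with HTSeq 0.9.1 in union mode, without strand and without reads that fit several places or genes. The deposited values are raw counts. The authors' edgeR 3.36.0 comparison table (log2 fold changes, mean log2 CPM, F scores, p-values and adjusted p-values) was not used.

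Counts were tested with edgeR 4.0.16 (R 4.3.3). A gene was tested if 5 or more libraries reached 1 CPM, and the fit used TMM factors, the robust quasi-likelihood F-test and Benjamini-Hochberg adjustment over all genes tested, at 0.15 after the study and at 0.05. Groups came from the genotype labels. Each replicate is labelled as a separate sample of its genotype, and no pair of libraries of the same genotype agreed within sampling noise. Pairs of different genotypes were not checked. SE is the absolute log2 fold change over the square root of F. Gene models and exon overlaps are from GENCODE M21, while the authors counted reads with an Ensembl release, in which overlaps can differ. The script was tested on simulated data. Alternatives were DESeq2 1.42.0, RLE factors, no filter, a replicate block, a clock or acute-phase component (prior count of 2) as covariate and each mouse left out. A block was not part of the main test.

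The members, lists and tests were chosen with earlier results of these data known. By rule, values of every mouse were given for members past 0.15 or with groups apart, and for Hmgcs1, Sqle, Srebf2, Cyp7a1, Cyp8b1, Cyp27a1 and Cyp7b1. The other members were to be given by range or count, with the log2 fold change where it was highest or lowest of its group, but Mvd, Dhcr7, Insig1, Npc1, Stard4, Cyp39a1 and Slc10a2 were also given by mouse, chosen after their values were seen, and genes of the neighbouring lists were named where past 0.15. Promoters were to be printed for members past 0.15, and since there were none, those shown were chosen after the values were seen. For marker lists not given above, summed normalized CPM in WT and in Thrb-KO mice follow. They were 77.4 to 316 and 89.1 to 194 for Kupffer cells (0 of 5 genes called, 5 with a log2 fold change below 0). Stellate cells were at 44.2 to 73.6 and 55.2 to 68.7 (1 of 5 called, higher, 5 above 0). Endothelial cells were at 113 to 134 and 119 to 152 (0 of 5 called, 3 above 0 and 2 below). Enterocytes were at 26.5 to 48.0 and 41.8 to 58.8 (1 of 5 tested, 0 called), nearly all from Fabp2. WT mouse 4 was the highest of all 10 mice in the untested enterocyte markers, with Sis at 0.94, Lct at 0.78, Vil1 at 0.70 and Alpi at 0.39 normalized CPM. Sis had 0 counts in every other mouse.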

Additional observations from a re-analysis of the deposited data

Results flagged for a closer look

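Within each group of 5 mice, the highest or lowest value was set against Dixon's 95% critical value, for each member tested, the 6 genes of the neighbouring lists past the threshold, Thrb and the total count. Of 86 groups checked, 7 held a mouse far from the others, where 1 in 20 is about 4.3. The groups share the same mice and many of the genes varied together, so setting 7 against 4.3 does not test chance.

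Among WT mice the mouse was mouse 5 in each of 5 genes. In that mouse Pmvk was at 60.0 normalized CPM against 33.9 to 37.5 in the other WT mice, and Mvd at 84.7 against 16.0 to 27.3. Lss was at 120.5 against 49.9 to 65.0, Msmo1 at 422 against 117 to 202, and Insig1 at 939 against 228 to 329. Among Thrb-KO mice, Fdps was at 16.8 normalized CPM in mouse 1 against 6.38 to 8.17 in the others. The total count of Thrb-KO mouse 2 was 27779196, against 28441288 to 28590704.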

How the results depend on the processing

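Genes past an adjusted p of 0.15 numbered 499, and 885 with DESeq2, 641 without the filter, 348 with the replicate block, 10 with the acute-phase component and 222 to 665 with 1 mouse left out (222 without Thrb-KO mouse 3, 227 without WT mouse 2 and 239 without WT mouse 5). At 0.05 there were 165, and 502, 294, 162, 5 and 75 to 185 (75 without WT mouse 2). Members past 0.15 numbered 0, and 1 with DESeq2 and 0 to 1 with 1 mouse left out, which is the transporter Slc10a2 (0 to 1 without WT mouse 4, log2 fold change -1.22). Other bile acid genes numbered 4, and 2 without the filter, 1 with the block, 0 with the acute-phase component and 1 to 4 with 1 mouse left out. Other sterol genes numbered 2, and 0 with the acute-phase component. Thrb was -0.36 (adjusted p = 1.0 with edgeR) with that component. The median log2 fold change of the members was -0.086, 0.30 with the acute-phase component and -0.18 to 0.029 with 1 mouse left out (0.029 without WT mouse 5). The cause of these shifts was not tested, and the acute-phase component was correlated with the genotype (r = -0.84). Replicate numbers did not pair the mice (same-number correlations from -0.20 to 0.0091), and the block called 0 members.

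With the acute-phase component the log2 fold change turned positive in Hmgcs1 (0.82), Mvk (0.47), Pmvk (0.44), Mvd (0.86), Idi1 (0.64), Fdps (1.14), Fdft1 (0.61), Sqle (0.37), Lss (0.44), Msmo1 (0.79), Nsdhl (0.62), Sc5d (0.40), Dhcr7 (0.29), Acat2 (0.22), Srebf2 (0.19), Insig1 (0.65), Scap (0.14), Scarb1 (0.10) and Akr1d1 (0.26), and with the clock component in Idi1 (0.016). With 1 mouse left out the sign was not fixed in Mvd (-0.90 to 0.038), Idi1 (-0.18 to 0.11), Fdps (-0.84 to 0.029), Fdft1 (-0.26 to 0.12), Lss (-0.48 to 0.0072), Cyp51 (-0.070 to 0.14), Msmo1 (-0.47 to 0.089), Sc5d (-0.18 to 0.076), Srebf2 (-0.18 to 0.061), Insig1 (-0.54 to 0.18), Insig2 (-0.19 to 0.059), Cyp7a1 (-0.68 to 0.020), Cyp7b1 (-0.13 to 0.28) and Slc10a1 (-0.042 to 0.11).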
